A study of Homo sapiens with 12 samples.

Results

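The 9 genes described here encode the NRF2 switch and its best-known glutathione, thioredoxin, and heme-degrading targets. They were NFE2L2, KEAP1, GCLC, GCLM, GSR, TXN, TXNRD1, SRXN1, and HMOX1, chosen by their gene symbols with earlier results of these data known. All 9 were among the 58735 genes of the count table. The cells were TIGK, a human gingival keratinocyte line immortalized with telomerase (hTERT), and the medium held 48 mM glucose in every group. TIGK cells received 500 μM L-arginine (Arg) or no Arg for 24 or 48 h, and the base medium had no Arg of its own. Each of the 4 groups (untreated control and Arg-treated cells at both times) had 3 libraries of poly(A) RNA, named replicates A, B, and C. TIGK is 1 line, and nothing in the labels says that the replicates came from separate experiments, so p-values measure only the spread between these libraries, which may be technical. In bulk RNA, fewer cells expressing a gene and less RNA of it per cell cannot be told apart.

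NRF2, the product of NFE2L2, is a transcription factor that KEAP1 holds in the cytoplasm and delivers for degradation. Oxidants and electrophiles modify KEAP1, NRF2 then accumulates, and with small MAF proteins it binds antioxidant response elements of its target genes, so that its activity is set largely at the level of the protein and not of its mRNA. The targets supply glutathione (GCLC and GCLM form the rate-limiting glutamate-cysteine ligase, GSR reduces oxidized glutathione), run the thioredoxin system (TXN, its reductase TXNRD1, and sulfiredoxin, SRXN1, which repairs overoxidized peroxiredoxins), and degrade heme (HMOX1). In oral epithelium these systems buffer reactive oxygen species.

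The promoters of these genes are shown because the antioxidant response element is the sequence that NRF2 binds at its target genes. A short core of it, TGACNNNGC, or GCNNNGTCA when it lies on the other strand, was searched in windows from 250 bases before to 50 bases after each RefSeq transcript start (GRCh38.p14). Of 35116 windows of that length, 13.35% held the core on either strand. Windows were given for 7 of the 9 genes, 10 in all, and 4 windows of 3 genes (GCLM, KEAP1, and TXNRD1) held it. GSR and HMOX1 had no entry. The sites are printed on the strand of the gene with 10 bases on each side and the core in capitals. The GCLM site lies at chr1:93909446-93909474 (minus strand), and its core begins 34 bases before the start. The KEAP1 sites lie at chr19:10502807-10502835 and chr19:10502784-10502812 (minus strand). Of the TXNRD1 sites (plus strand), chr12:104215670-104215698 and chr12:104215761-104215789 belong to the upstream start, and chr12:104286920-104286948 belongs to a start farther into the gene.
GCLM site: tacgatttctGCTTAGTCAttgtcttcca
KEAP1 first site: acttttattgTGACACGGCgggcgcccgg
KEAP1 second site: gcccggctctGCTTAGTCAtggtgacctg
TXNRD1 first site: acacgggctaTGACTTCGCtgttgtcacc
TXNRD1 second site: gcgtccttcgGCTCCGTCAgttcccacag
TXNRD1 downstream site: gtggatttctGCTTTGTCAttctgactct
GCLM and KEAP1 carry the same 9 letters, GCTTAGTCA. A match is a description of the letters and not proof of binding.

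The 250 bases upstream of GCLC and TXNRD1 are given in full because both genes were higher with Arg at 24 h, and only one of these windows holds the core. The GCLC stretch, chr6:53545102-53545351 (minus strand), had 60.8% G and C and no core, which says only that these letters are not in this window. This stretch precedes a RefSeq start that lies inside the deposited gene model of GCLC (chr6:53497341-53616970). The TXNRD1 stretch, chr12:104215529-104215778 (plus strand), had 56.4% G and C and 2 cores in capitals, the second of which runs 1 base past the end of the stretch into the transcript.
GCLC upstream: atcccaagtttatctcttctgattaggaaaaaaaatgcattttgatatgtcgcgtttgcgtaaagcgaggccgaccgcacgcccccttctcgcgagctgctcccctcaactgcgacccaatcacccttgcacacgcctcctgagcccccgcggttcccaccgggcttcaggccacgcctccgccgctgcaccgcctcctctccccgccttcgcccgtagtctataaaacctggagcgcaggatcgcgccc
TXNRD1 upstream: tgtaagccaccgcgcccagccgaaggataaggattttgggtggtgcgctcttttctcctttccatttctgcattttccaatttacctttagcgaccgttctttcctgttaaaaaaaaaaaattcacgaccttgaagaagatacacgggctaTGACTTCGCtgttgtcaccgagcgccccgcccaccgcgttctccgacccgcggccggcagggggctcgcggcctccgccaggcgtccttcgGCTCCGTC

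The libraries held 16542243 to 19040964 counts. Summed keratinocyte markers lay between 43366 and 56000 CPM (counts scaled to library size) in all groups, against at most 0.596 CPM for the 5 leukocyte markers (LYZ at 0 throughout), 3.06 CPM for the 4 melanocyte markers (TYR at 0 throughout), and 6.41 CPM for the 4 endothelial markers. A control library stood apart, and the choice to show values without it was made after the data were seen. Control replicate B at 48 h differed most from its own group, with 1.55% of its counts on mitochondrially encoded genes against 0.906% and 0.707% in replicates A and C, and the values of the 9 genes described below are also given without it where it takes part. The mitochondrial share was lower with Arg at 24 h, between 0.624% and 0.802%, beside 1.20% to 1.30% in the control libraries. At 48 h it was 1.14%, 1.31%, and 1.16% in Arg replicates A, B, and C. These lay above control replicates A and C and below control replicate B. The part of this share in the results was not tested.

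Levels between genes were compared as CPM per kilobase of the deposited gene length (RPKM). In the 24 h control, TXN was highest at 352 ± 42.4 (SD, n = 3), followed by KEAP1 at 55.2 ± 0.749, TXNRD1 at 41.6 ± 1.14, GSR at 26.0 ± 3.28, and NFE2L2 at 20.3 ± 0.689. GCLC, at 10.5 ± 0.960, lay above its partner GCLM, at 7.06 ± 0.583. SRXN1, at 3.38 ± 0.669, and HMOX1, at 2.09 ± 0.578, were lowest, with 130 to 213 and 61 to 184 counts per library over the 12 libraries. The ranges of neighbouring genes in this order were all apart in the 24 h control. With Arg at 24 h the order was the same, but KEAP1 and TXNRD1 overlapped. At 48 h, GSR stood above TXNRD1 in the order with and without Arg, with overlapping ranges. GCLC and NFE2L2 overlapped in the 48 h control, whereas with Arg at 48 h GCLC, at 24.4 ± 0.523, lay apart above NFE2L2, at 22.6 ± 0.628. SRXN1 and HMOX1 overlapped in both 48 h groups.

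**Figure D1:**
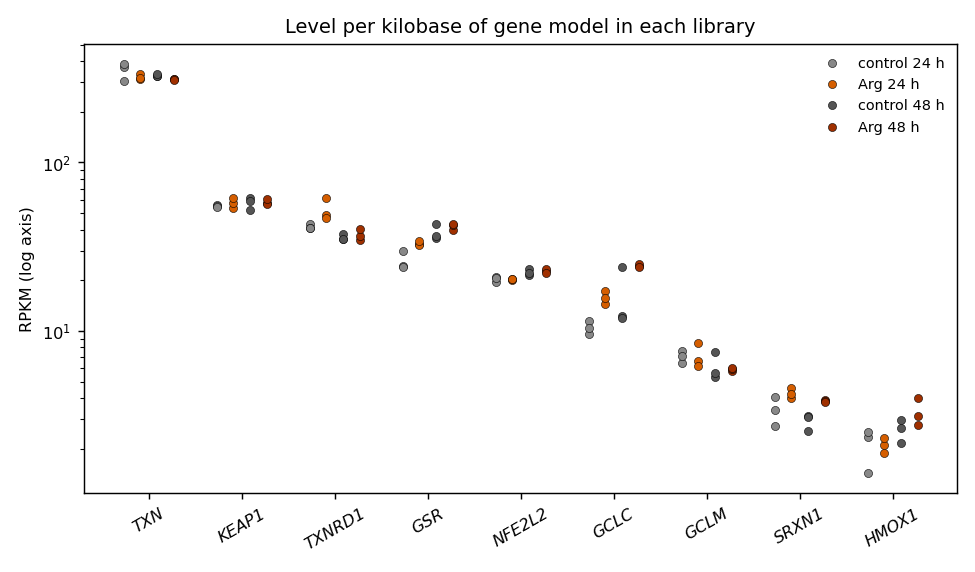
Level of each gene per kilobase of gene model (RPKM, log axis) in every library, with 3 points for each of the 4 groups. TXN lies far above the other 8 genes, SRXN1 and HMOX1 lie lowest, and GCLC moves up between the 24 h control (mean 10.5) and Arg at 48 h (mean 24.4).

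Arg at 24 h was compared with the untreated control of the same time to ask which of these genes moved under short treatment. GCLC, GSR, and TXNRD1 rose, and none of the 9 fell, at an adjusted p under 0.05 in edgeR's quasi-likelihood test. Of all 14279 genes tested, 6.63% passed in either direction and 2.79% were higher. The median log2 fold change of the 9 genes was 0.06, beside 0.0030 over all genes. In 3 of the 9 genes, the same 3, the groups did not overlap, which was the case for 26.2% of all genes. The regulators, the second subunit GCLM, and HMOX1 gave fold changes near 0. The share of all genes that passed ran from 2.45% to 10.4% when 1 library was left out. Of the 4 fibroblast markers tested (8 listed), DCN was lower with Arg at 24 h (log2 fold change −0.70, edgeR adjusted p = 0.0294). The 8 summed to between 34.5 and 54.4 CPM in the control and between 30.3 and 41.4 CPM with Arg, and their part in the results was not tested.

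GCLC (ENSG00000001084, chr6:53497341-53616970), the catalytic subunit of glutamate-cysteine ligase, had 83.0, 99.5, and 89.8 CPM in control replicates A, B, and C and 149, 124, and 135 CPM with Arg. Every Arg library was above every control library. The log2 fold change was 0.58 ± 0.09 (SE, edgeR adjusted p = 9.80e-04), and it stayed past the threshold when any 1 library was left out, at 0.51 to 0.65. GCLM (ENSG00000023909, chr1:93885205-93909456), the modifier subunit that raises the enzyme's affinity for glutamate, had 41.4, 35.1, and 38.3 CPM in the control and 45.7, 35.7, and 33.6 CPM with Arg. These groups overlapped, and the 95% interval of the log2 fold change ran from −0.24 to 0.25 (edgeR adjusted p = 0.996).

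GSR (ENSG00000104687, chr8:30678061-30727999), glutathione reductase, had 91.3, 112, and 90.3 CPM in the control and 124, 122, and 128 CPM with Arg. The groups did not overlap, and the log2 fold change was 0.35 ± 0.09 (SE, edgeR adjusted p = 0.0297). This call was lost when any 1 library other than control replicate B was left out, at adjusted p between 0.0502 and 0.165, and without control replicate B the adjusted p was 0.00189.

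TXNRD1 (ENSG00000198431, chr12:104215779-104350305), the reductase that keeps thioredoxin active, had 288, 275, and 274 CPM in the control and 415, 326, and 316 CPM with Arg. All Arg libraries were higher, and Arg replicate A was the highest of them. The log2 fold change was 0.33 ± 0.09 (SE, edgeR adjusted p = 0.0414). Without Arg replicate A it was 0.19 (edgeR adjusted p = 0.118), and it also lost the call without control replicate A (0.108), control replicate C (0.134), or Arg replicate B (0.0701). TXN (ENSG00000136810, chr9:110243811-110256640), its substrate, had 423, 347, and 437 CPM in the control and 381, 358, and 364 CPM with Arg, which overlapped (log2 fold change −0.13, edgeR adjusted p = 0.402).

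SRXN1 (ENSG00000271303, chr20:646615-653370) had 9.10, 7.34, and 11.0 CPM in the control and 10.8, 12.3, and 11.4 CPM with Arg. Its log2 fold change of 0.33 ± 0.17 (SE) was as large as that of TXNRD1 but did not pass (edgeR adjusted p = 0.248). HMOX1 (ENSG00000100292, chr22:35380361-35394214), which opens the heme ring, had 5.63, 3.45, and 6.03 CPM in the control and 4.55, 5.07, and 5.59 CPM with Arg. At these counts the 95% interval of its log2 fold change ran from −0.48 to 0.50, so a moderate change in either direction was not detectable.

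Among the regulators, NFE2L2 had tight replicates, with an SD of 4.12 CPM in the control and 1.08 CPM with Arg. The SD of KEAP1 was 2.82 CPM in the control and 14.7 CPM with Arg. NFE2L2 (ENSG00000116044, chr2:177227595-177392697) had 117, 125, and 123 CPM in the control and 120, 121, and 122 CPM with Arg, with a 95% interval of the log2 fold change from −0.17 to 0.15. KEAP1 (ENSG00000079999, chr19:10486120-10503741) had 211, 207, and 205 CPM in the control and 203, 216, and 232 CPM with Arg, with an interval from −0.10 to 0.22. Both pairs of groups overlapped. The first bases of the NFE2L2 model overlap the start of AGPS on the other strand, a gene with 26895 counts beside the 27798 of NFE2L2, and whether counting used strand is not given in the sources used here. TXNRD1 contains the pseudogene RPL18AP3 (5487 counts against 60831), and the other 7 genes overlap nothing with more than 27 counts.

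**Figure D2:**
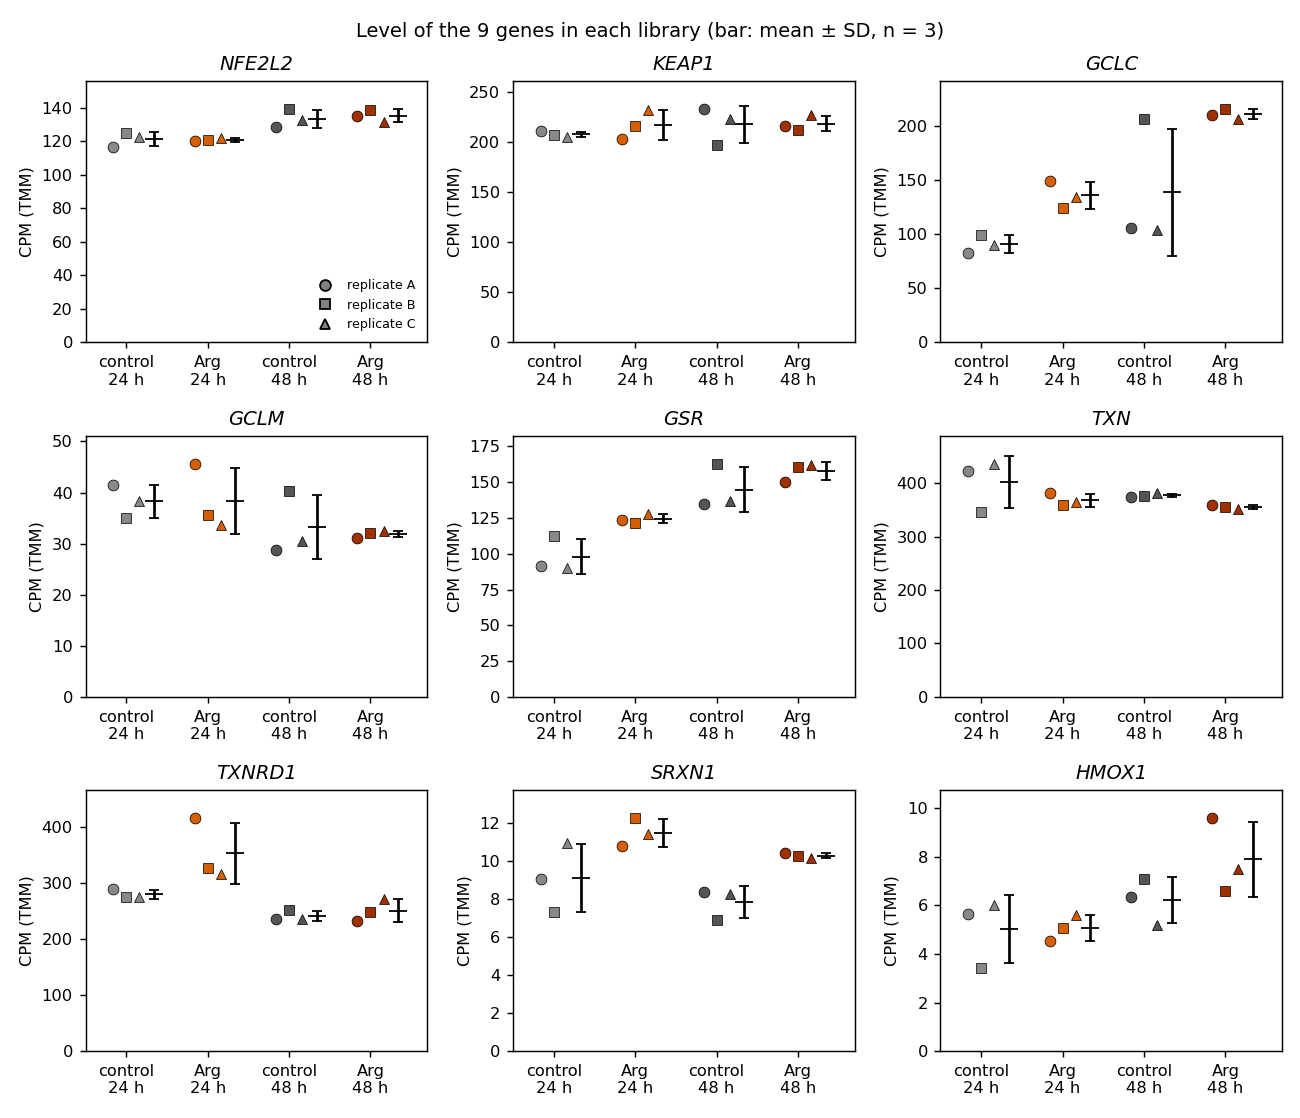
CPM of the 9 genes in every library, with replicates A, B, and C as circles, squares, and triangles and the mean ± SD of each group (n = 3) beside them. GCLC is higher in every Arg library than in the controls at 24 h. At 48 h control replicate B (206.1 CPM) lies with the Arg libraries for GCLC, just below the lowest of them (206.8 CPM). The NFE2L2 and KEAP1 groups with and without Arg overlap at each time.

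At 48 h the same comparison asked whether the differences were present after longer treatment. None of the 9 genes passed the adjusted threshold, and only 0.117% of the 14562 genes tested did (17 genes, with 1955 at an unadjusted p under 0.05). The 3 Arg libraries did not overlap with the control for GCLC and SRXN1, which were higher, and TXN, which was lower, 3 of 9 genes beside 17.1% of all genes. The median log2 fold change of the 9 was 0.05, beside 0.0018 over all genes. Without control replicate B the median was 0.10, and the groups did not overlap for 6 of the 9 genes (GCLC, GCLM, GSR, HMOX1, and SRXN1 higher, TXN lower), beside 45.2% of all genes. By DESeq2 none of the 9 passed either, and at an unadjusted p under 0.05 edgeR had 2, GCLC and SRXN1.

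GCLC had 106, 206, and 104 CPM in control replicates A, B, and C and 210, 216, and 207 CPM with Arg. Control replicate B lay next to the Arg libraries and the other control libraries near 105, so that the log2 fold change of 0.60 ± 0.20 (SE) was as large as at 24 h with a larger error (edgeR adjusted p = 0.235). Without control replicate B it was 1.01 (edgeR adjusted p = 5.38e-11), and without control replicate A or C it was 0.44 and 0.43. Since control replicate B lay next to the Arg libraries, leaving it out had to widen the difference, and the p-value without it adds no support. With that library left out, GSR was the other of the 9 genes past the threshold, at a log2 fold change of 0.22 (edgeR adjusted p = 0.0162), and 15.9% of all genes passed.

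GSR itself had 135, 163, and 137 CPM in the control and 150, 161, and 162 CPM with Arg, which overlapped through control replicate B (log2 fold change 0.12, edgeR adjusted p = 0.545). GCLM had 28.8, 40.4, and 30.6 CPM in the control and 31.2, 32.2, and 32.4 CPM with Arg. Control replicate B was again the highest library, and the log2 fold change turned from −0.06 to 0.10 without it. Neither value of GCLM passed the test.

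In the thioredoxin group, TXNRD1 had 236, 251, and 235 CPM in the control and 232, 247, and 272 CPM with Arg, with overlapping groups and a 95% interval of the log2 fold change from −0.10 to 0.20 (0.05, and 0.09 without control replicate B). SRXN1 had 8.39, 6.90, and 8.31 CPM in the control and 10.4, 10.3, and 10.2 CPM with Arg. Each Arg library was higher, yet the log2 fold change of 0.39 ± 0.15 (SE) had an edgeR adjusted p of 0.295 (0.30 without control replicate B, edgeR adjusted p = 0.198). TXN had 375, 375, and 381 CPM in the control and 359, 355, and 352 CPM with Arg, a narrow gap with a log2 fold change of −0.09 (edgeR adjusted p = 0.524, and 0.280 without control replicate B).

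HMOX1 had 6.35, 7.11, and 5.20 CPM in the control and 9.60, 6.61, and 7.49 CPM with Arg, which overlapped (log2 fold change 0.34, 95% interval from −0.09 to 0.78), and without control replicate B the log2 fold change was 0.45 (edgeR adjusted p = 0.130). NFE2L2 had 129, 139, and 133 CPM in the control and 135, 139, and 132 CPM with Arg, and KEAP1 had 233, 197, and 223 CPM in the control and 216, 212, and 227 CPM with Arg. The regulators thus overlapped at both times, with log2 fold changes of 0.02 and 0.0015 at 48 h, and of 0.05 and −0.06 without control replicate B.

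Whether the Arg effect itself differed between the times was tested as an interaction over all 12 libraries. None of the 9 genes passed, and 0.0132% of 15148 genes did (2 genes, with 1040 at an unadjusted p under 0.05). For TXNRD1, the Arg effect at 48 h minus that at 24 h was −0.28 ± 0.13 on the log2 scale (SE, edgeR adjusted p = 0.708). For GSR the difference was −0.22 ± 0.13 (edgeR adjusted p = 0.780). Without control replicate B at 48 h these values were −0.25 and −0.13, with edgeR adjusted p of 0.567 and 0.790, and 0.297% of all genes passed. For GCLC it was 0.02, with a 95% interval from −0.48 to 0.52, and 0.42 without control replicate B at 48 h (edgeR adjusted p = 0.176).

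**Figure D3:**
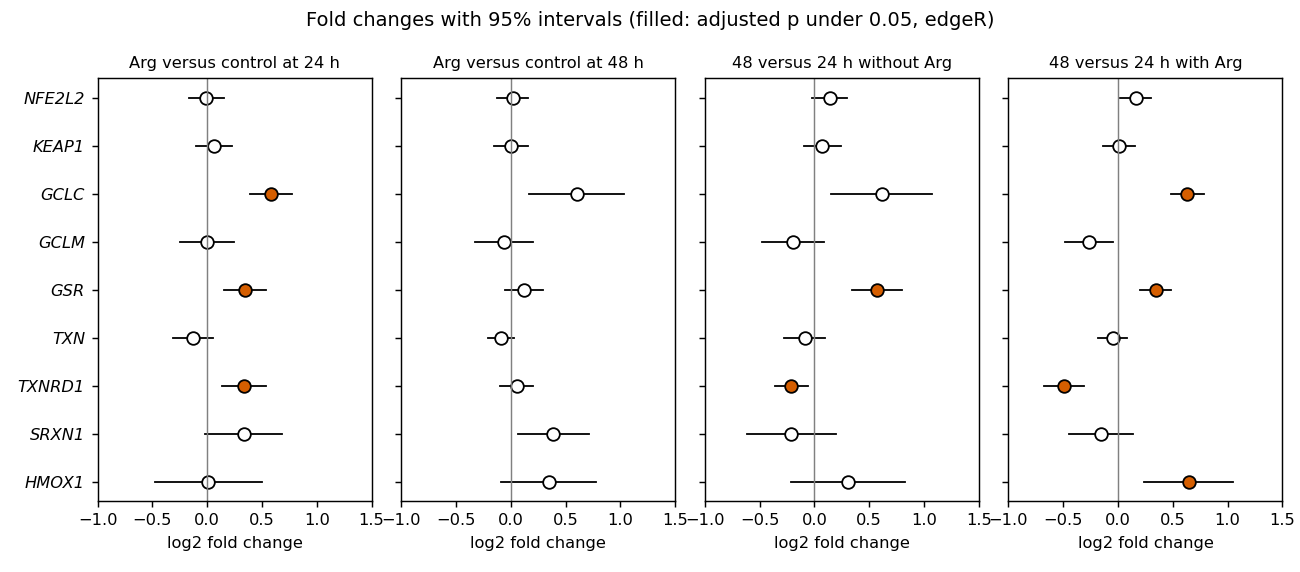
Log2 fold changes of the 9 genes in the 4 comparisons between groups, with 95% intervals and filled points at an edgeR adjusted p under 0.05. GCLC, GSR, and TXNRD1 are filled for Arg at 24 h, no gene is filled for Arg at 48 h, and TXNRD1 lies left of 0 in both comparisons of time.

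The 48 h libraries were compared with those of 24 h, separately without and with Arg. These comparisons use the same libraries as the tests of Arg. Time moved much of the transcriptome: 19.9% of the genes tested passed without Arg and 28.3% with Arg, so the 2 and 4 of the 9 genes that passed stand against a high background. Groups did not overlap for 4 of the 9 genes without Arg and 7 with Arg, beside 39.0% and 42.2% of all genes. Without Arg and without control replicate B at 48 h, the count was 6 of 9, beside 48.3% of all genes. Of the 10 keratinocyte markers, 5 rose and 2 fell in both comparisons. DSG3 (1.20 without and 1.09 with Arg on the log2 scale), KRT16 (0.96 and 1.14), and DSP (0.75 and 0.89) rose. So did TP63 (0.42 and 0.34) and CDH1 (0.28 and 0.26). KRT17 (−0.69 and −0.38) and SFN (−0.31 and −0.38) fell. The summed 8 fibroblast markers also moved with time, from between 30.3 and 54.4 CPM at 24 h to between 72.8 and 103 CPM at 48 h, and their part in the results was not tested. DCN and COL1A1 carried most of that sum, and COL1A2 had at most 0.060 CPM. The 4 endothelial markers summed to between 0.757 and 3.01 CPM at 24 h and between 4.09 and 6.41 CPM at 48 h. The part of the keratinocyte and endothelial markers in the results was not tested either.

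Without Arg, GSR rose from a mean of 97.9 to 145 CPM (log2 fold change 0.57 ± 0.11 SE, edgeR adjusted p = 0.00495, and 0.47 without control replicate B of 48 h, edgeR adjusted p = 0.00502), and TXNRD1 fell from 279 to 241 CPM (−0.21 ± 0.07 SE, edgeR adjusted p = 0.0474, and −0.24 without that library). The call of TXNRD1 was lost without control replicate A or C of 24 h or of 48 h, at adjusted p from 0.108 to 0.171, in fits where 5.59% to 15.5% of all genes passed. GCLC had a log2 fold change of 0.62 ± 0.21 (SE, edgeR adjusted p = 0.0595), which was 0.21 (edgeR adjusted p = 0.116) without control replicate B at 48 h. With all libraries, GCLC passed by library size only (edgeR adjusted p = 0.0459), with no filter on low counts (4.34e-09), and in 1 model of all libraries (0.0134). Without that library 16.4% of all genes passed, and GCLM, at −0.36 (edgeR adjusted p = 0.0296), passed beside GSR and TXNRD1. GCLC passed instead when control replicate A (0.0362) or C (0.0223) of 48 h was left out.

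With Arg, GCLC rose from a mean of 136 to 211 CPM (log2 fold change 0.63 ± 0.07 SE, edgeR adjusted p = 3.11e-06) and GSR from 124 to 158 CPM (0.34 ± 0.07 SE, edgeR adjusted p = 8.43e-04). TXNRD1 fell from 352 to 250 CPM (−0.49 ± 0.09 SE, edgeR adjusted p = 3.40e-04). HMOX1 rose from 5.07 to 7.90 CPM (0.64 ± 0.19 SE, edgeR adjusted p = 0.0171), a call that was lost without Arg replicate A of 48 h, the library with 9.60 CPM (0.47, edgeR adjusted p = 0.125). GCLM had lower values in every 48 h library (−0.26 ± 0.11 SE, edgeR adjusted p = 0.0706), and it passed without Arg replicate C of 24 h. NFE2L2 had higher values in every 48 h library, with log2 fold changes of 0.14 without Arg and 0.16 with Arg that did not pass (edgeR adjusted p = 0.205 and 0.0789). Without control replicate B of 48 h, the first of these was 0.11 (edgeR adjusted p = 0.366).

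The partners of a complex or cycle were also set against each other within a library, as ratios of RPKM, which do not depend on the library's scaling. The pairs were chosen after the values were seen, and the ratios are given as a description with no test. The ratio of GCLC to GCLM was 1.26, 1.78, and 1.47 in the 24 h control and 2.04, 2.18, and 2.51 with Arg. At 48 h it was 2.31, 3.20, and 2.12 in the control and 4.23, 4.21, and 4.00 with Arg. Arg libraries were above the control at each time, and control replicate B at 48 h, at 3.20, stayed below all Arg libraries of that time. The ratio of TXNRD1 to TXN was 0.116, 0.135, and 0.107 in the 24 h control and 0.185, 0.155, and 0.148 with Arg. At 48 h it lay between 0.105 and 0.114 in the control and between 0.110 and 0.132 with Arg, where the groups overlapped. The ratio of NFE2L2 to KEAP1 lay between 0.331 and 0.444 over all 12 libraries, and its groups overlapped in every comparison.

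**Figure D4:**
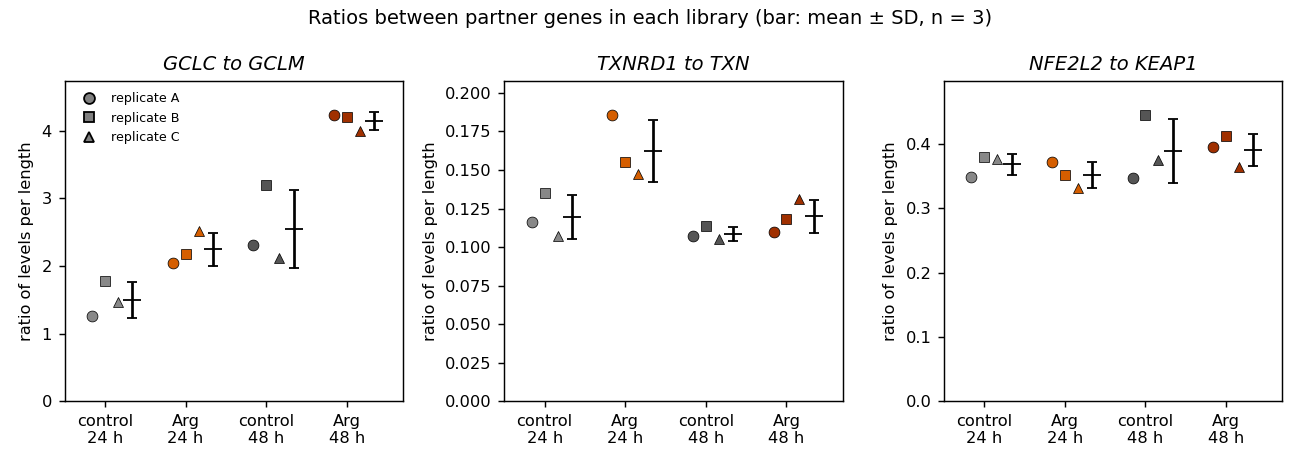
Ratios of levels per length between partner genes in every library, with the mean ± SD of each group (n = 3). The GCLC to GCLM ratio is lowest in the 24 h control and highest with Arg at 48 h (mean 4.14), the TXNRD1 to TXN ratio is highest with Arg at 24 h (mean 0.163), and the NFE2L2 to KEAP1 ratio overlaps between groups.

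Another 92 genes of the pathway were listed by role, and 91 of them were tested. With Arg at 24 h, 3 were higher and 7 lower (11.0%, beside the 6.63% of all genes), with a median log2 fold change of −0.03. These were 12 regulators and partners, 27 glutathione genes, 19 thioredoxin and peroxiredoxin genes, 11 heme and iron genes, 7 genes of NADPH supply, and 16 detoxification enzymes and exporters. No gene of heme and iron handling or NADPH supply passed. The count fell to 4 without control replicate C, Arg replicate B, or Arg replicate C, to 5 without control replicate A, and rose to 16 without control replicate B. The share of all genes moved with it, to between 2.45% and 2.98% where the count fell and to 10.4% where it rose. NQO1, SLC7A11, GLRX, and TXNIP passed in all 6 cases.

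The genes that rose were SLC7A11, the cystine importer that feeds glutathione synthesis, and the NRF2 targets NQO1 and OSGIN1. SLC7A11 had 109, 92.7, and 127 CPM in the control and 185, 154, and 148 CPM with Arg (log2 fold change 0.57, edgeR adjusted p = 0.00474). NQO1, a quinone reductase, had 365, 315, and 344 CPM in the control and 539, 461, and 429 CPM with Arg (0.48, edgeR adjusted p = 0.00426). OSGIN1 had 21.8, 21.1, and 19.6 CPM in the control and 27.4, 31.2, and 24.6 CPM with Arg (0.41, edgeR adjusted p = 0.0431). In all 3 genes the groups did not overlap, as in 26.2% of all genes. Since the 3 were picked for passing on the same libraries, this adds no support. OSGIN1 passed in 1 of 6 fits with 1 library left out, at edgeR adjusted p up to 0.213.

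The 7 genes that fell differ in function. TXNIP, which binds and inhibits thioredoxin, had 111, 116, and 145 CPM in the control and 50.9, 46.9, and 52.6 CPM with Arg (log2 fold change −1.31, edgeR adjusted p = 6.49e-07). GLRX, a glutaredoxin that uses glutathione to reduce disulfides, had 11.1, 11.9, and 12.4 CPM in the control and 4.95, 4.48, and 6.88 CPM with Arg (−1.11, edgeR adjusted p = 0.00143). GSTP1, a glutathione transferase, fell by 0.28 on the log2 scale (edgeR adjusted p = 0.0241), and MAFF, a small MAF protein, by 0.58 (edgeR adjusted p = 0.0472). The aldo-keto reductases AKR1B10 (−1.78, edgeR adjusted p = 0.0268) and AKR1C1 (−0.95, edgeR adjusted p = 0.0124), which are known NRF2 targets in human cells, fell while NQO1 rose. Both have near-identical paralogs that could share reads, so their values are uncertain, and AKR1B10 had at most 2.60 CPM in these libraries. UGDH, of the detoxification list, also fell, by 0.36 (edgeR adjusted p = 0.0321), and is named after its value was seen. With 1 library left out, AKR1B10 and MAFF each passed in 1 of 6 fits, GSTP1 in 2, and AKR1C1 in 3. The edgeR adjusted p reached 0.157 for AKR1B10, 0.0885 for AKR1C1, and 0.223 for MAFF. MAFF passed in 5 of 6 alternatives that kept all libraries. The falls of these 4 genes thus depended on single libraries.

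At 48 h none of the 91 genes passed (median log2 fold change −0.02). Without control replicate B at 48 h, 26 did, 13 in each direction, beside 15.9% of all genes. SLC7A11 had 110, 162, and 122 CPM in the control and 173, 180, and 195 CPM with Arg (edgeR adjusted p = 0.157), and its log2 fold change without control replicate B was 0.66 (edgeR adjusted p = 3.41e-07). TXNIP had 98.3, 36.4, and 96.0 CPM in the control and 45.2, 49.0, and 40.2 CPM with Arg (edgeR adjusted p = 0.241), and its log2 fold change without that library was −1.12 (edgeR adjusted p = 7.62e-10). For both genes, as for GCLC, control replicate B lay on the side of the Arg libraries, so leaving it out had to widen their differences. GLRX had 16.1, 11.3, and 15.4 CPM in the control and 12.5, 7.74, and 10.5 CPM with Arg, which overlapped through this library. In NQO1 this library lay with its own group, at 322, 338, and 324 CPM in the control and 378, 393, and 393 CPM with Arg. None of the 91 passed the interaction.

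**Figure D5:**
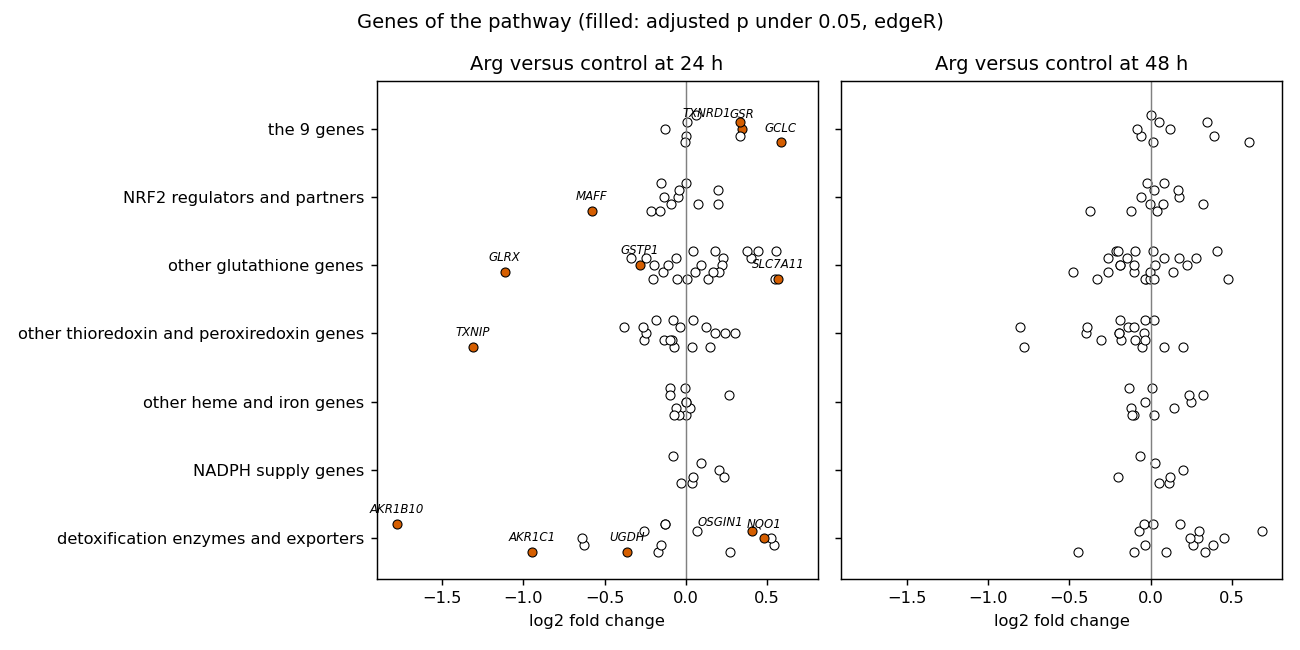
Log2 fold changes of the 9 genes and of the 91 other pathway genes tested, by list, for Arg at 24 h and at 48 h, with filled points at an edgeR adjusted p under 0.05. At 24 h the filled points lie on both sides of 0, from AKR1B10 (−1.78) to GCLC (0.58), and at 48 h no point is filled.

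Over time, 15 of the 91 genes were higher and 8 lower without Arg, and 26 were higher and 12 lower with Arg, against the 19.9% and 28.3% of all genes. The 23 genes without Arg became 9 without control replicate A of 24 h, 8 without control replicate C of 24 h, and 14 without control replicate A of 48 h, in fits where 5.59%, 6.70%, and 12.4% of all genes passed. Without control replicate B of 48 h, 23 passed again, beside 16.4% of all genes. Of the regulators, NFE2L1, a relative of NRF2, rose by 0.51 without and 0.48 with Arg, and PGAM5, a mitochondrial phosphatase that binds KEAP1, fell by 0.34 and 0.26 (log2, edgeR adjusted p from 4.70e-05 to 0.0216). BACH1, the repressor that competes with NRF2 at HMOX1, rose with Arg by 0.30 (edgeR adjusted p = 0.00598), and SQSTM1, which can bind KEAP1, by 0.19 (0.0457).

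Of the 26 glutathione genes tested, 6 were higher and 4 lower over time without Arg, and 6 were higher and 7 lower with Arg. These were 38.5% and 50% of the list, beside 19.9% and 28.3% of all genes. The transferase GSTA4 rose in both, by 0.77 and 0.85 (log2, edgeR adjusted p = 0.0279 and 2.90e-04). Without Arg, HAGH rose by 0.73 and GSTM4 by 0.70, and CHAC2, which degrades glutathione, fell by 0.65 (edgeR adjusted p from 0.00806 to 0.0365). GSTM4 has near-identical paralogs, so its value is uncertain. With Arg, GLRX rose by 0.92, GGT1 by 0.91, and OPLAH, a 5-oxoprolinase, by 0.78 (edgeR adjusted p from 1.59e-05 to 0.0391). In the thioredoxin and peroxiredoxin list, 2 of 19 passed without Arg and 3 with Arg (10.5% and 15.8%, below the shares of all genes). The peroxiredoxin PRDX4 fell by 0.35 without and 0.48 with Arg, PRDX5 rose by 0.31 and 0.29, and MSRB1, a methionine sulfoxide reductase, rose by 0.32 with Arg (edgeR adjusted p from 2.22e-04 to 0.0306).

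In the heme and iron list, 3 of 11 were higher and 1 lower without Arg, and 4 higher and 1 lower with Arg. These were 36.4% and 45.5% of the list, beside 19.9% and 28.3% of all genes. The biliverdin reductase BLVRB rose by 0.68 without Arg and 0.93 with Arg, ferrochelatase (FECH) by 0.43 and 0.39, and the heme exporter FLVCR1 fell by 0.37 and 0.41. BLVRA rose without Arg by 0.40, and the iron exporter SLC40A1 with Arg by 0.97 (log2, edgeR adjusted p for this list from 1.64e-06 to 0.0399). In the NADPH list, IDH1 rose by 0.59 without and 0.35 with Arg, and TALDO1 rose with Arg by 0.21 (edgeR adjusted p from 0.00193 to 0.0199).

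Of the 16 detoxification genes, 3 were higher and 1 lower over time without Arg (25%, beside 19.9% of all genes). In the libraries with Arg, 8 were higher and 2 lower (62.5%, beside 28.3% of all genes). With Arg, AKR1B10 rose by 3.11, AKR1C3 by 1.52, the aldehyde dehydrogenase ALDH3A1 by 1.39, and PIR by 0.80 (log2, edgeR adjusted p from 6.31e-06 to 0.0345). AKR1B10 had 0.225, 0.699, and 0.806 CPM with Arg at 24 h and 6.05, 5.60, and 3.45 CPM with Arg at 48 h, so its fold rests on few counts at 24 h. ALDH3A1 was also low, with 0.393, 0.408, and 1.24 CPM with Arg at 24 h and 1.62, 2.44, and 1.38 CPM at 48 h. AKR1C3 had 2.58, 1.63, and 1.93 CPM with Arg at 24 h. Without Arg, AKR1B10 rose by 1.16, the exporter ABCC3 by 0.73, and PIR by 0.66, and AKR1C1 fell by 1.36 (edgeR adjusted p from 0.00199 to 0.0220). The values of the aldo-keto reductases are uncertain here too. NQO1, which was higher with Arg at 24 h, fell by 0.29 on the log2 scale from 24 to 48 h with Arg (edgeR adjusted p = 0.00585) and is named for this comparison after its value was seen.

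The genes most like a member across the 12 libraries were ranked by Pearson's r of log2 CPM over 15147 other genes, as a description, since the libraries share their groups. NFE2L2 was most like PJA2 (r = 0.980), LMO7 (0.979), and ITM2B (0.975), and TXNRD1 most like SRSF1 (0.961), PPID (0.959), and USP10 (0.954). GCLM was most like TSPAN5 (0.921), GTF2H1 (0.915), and MRS2 (0.912), and HMOX1 most like BEAN1 (0.920), AC018809.2 (0.915), and NMRK1 (0.903). None of these 12 genes is among the 9 or the pathway lists.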

How the data were processed

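RNA sequencing libraries of TIGK cells (4 groups, 3 libraries each) were used. The authors filtered reads with fastp, mapped them to GRCh38/hg38 with STAR, and deposited raw counts per gene from featureCounts with gene coordinates and lengths. Versions, annotation release, and strand setting are not given in the sources used here. Libraries were grouped by their labels, and 0 count columns were left out. Counts were tested with edgeR 4.0.16 (R 4.3.3, TMM, filterByExpr at a minimum count of 10, quasi-likelihood test), each pair of groups in its own model and the interaction over 12 libraries, with Benjamini–Hochberg adjustment over all genes tested. The script was checked on simulated data. CPM used TMM factors over 12 libraries, and log2 CPM a prior count of 2. Standard errors were computed as the absolute log2 fold change over the square root of F. Promoters came from RefSeq (GRCh38.p14). Named genes were the 9 members, up to 4 genes of each pathway list with the largest changes among those passing, and overlapping genes. The 3 genes most like NFE2L2, GCLM, TXNRD1, and HMOX1 were also named. Cell type markers, and UGDH and NQO1 where stated, were named outside this rule. Members and lists were chosen with earlier results of these data known. Alternatives were DESeq2 1.42.0, its size factors, library size only, no filter, a replicate block, 1 model of all libraries, and leaving out each library. Depth limits SRXN1 and HMOX1 most.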

Additional observations from a re-analysis of the deposited data

How the results depend on the processing

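Across the 5 comparisons, the calls of the 9 genes changed most with single libraries. Leaving out 1 library gave 1 to 3 of the 9 called for Arg at 24 h, 0 to 2 at 48 h, and 1 to 3 for time without Arg, while 2.45% to 10.4%, 0.0404% to 15.9%, and 5.59% to 22.2% of all genes passed. Of the other 91 pathway genes (alternatives chosen after seeing the data) it gave 4 to 16 for Arg at 24 h, 0 to 26 at 48 h, 8 to 24 for time without Arg, and 0 to 1 for the interaction. At 48 h, 1 of the 9 genes (GCLC) was called with no filter and 1 with the replicate block, and 5 of the 91 by DESeq2, 7 with no filter, and 3 with the block, while all genes called went from 17 to 169, 573, and 184, to 41 with all libraries in 1 model, and to 2365 without control replicate B. For the interaction, no filter called 4 of the 91 genes and 88 of all genes, against 2, and DESeq2 21 of all genes. For time without Arg, library size only, no filter, and 1 model of all libraries called GCLC and GSR in place of TXNRD1 and GSR, and the block called all 3. For time with Arg, library size only also called NFE2L2. The causes were not tested. The replicate letters did not pair the libraries: same-letter deviations correlated between −0.061 and 0.135, and 9 of 24 library comparisons were best with their own letter, so the block is given only here.

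The following values changed sign. GCLM for Arg at 24 h was −0.0016 with no filter and −0.0062 with the block, KEAP1 for Arg at 48 h −0.00036 with no filter, and TXN for time with Arg 0.0077 with library size only. With 1 library left out, the log2 fold changes for Arg at 24 h ranged for NFE2L2 from −0.036 to 0.010, GCLM −0.15 to 0.087, and HMOX1 −0.20 to 0.15. For Arg at 48 h they ranged for NFE2L2 from −0.011 to 0.049, KEAP1 −0.063 to 0.053, GCLM −0.16 to 0.10, TXNRD1 −0.0064 to 0.10, and MAFF −0.30 to 0.019. KEAP1 for time with Arg ranged from −0.038 to 0.061. The interaction ranged for NFE2L2 from −0.0011 to 0.057, GCLC −0.15 to 0.42, GCLM −0.16 to 0.10, TXN −0.019 to 0.15, and SRXN1 −0.093 to 0.20.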
